A study of Homo sapiens with 15 samples.

Results

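The zinc finger genes of human chromosome 19 that carry a plain ZNF number as their name are described here. They were found by taking every counting region on chromosome 19 whose gene name is ZNF, a number and at most 1 further letter, and by summing the regions of a name. Of 236 such names, which held 582 regions, 184 reached at least 10 reads on average over the 12 alkylated libraries; these are the chromosome 19 ZNF genes of the text. A further 52 names stayed under that minimum, among them 10 without a read. In the whole data set 13152 of 19531 gene names reached the same minimum. All 184 genes were found under the same symbol on chromosome 19 in RefSeq, where each is protein coding. Just inside the minimum lay ZNF540 with 10.5, ZNF254 with 10.7 and ZNF382 with 13.2 reads on average, and just outside it ZNF497 with 9.92, ZNF285 with 9.42 and ZNF610 with 8.25 reads.

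The cells were U2OS, an osteosarcoma cell line, sorted into the phases G1, Early_S, Late_S and G2 with 3 libraries each. Per the labels, cells growing asynchronously received 4-thiouridine, which is built into new RNA, together with EdU, which is built into new DNA, for 45 minutes before fixation and sorting by EdU and DNA content. Alkylation of the RNA makes reverse transcription read 4-thiouridine as C, so that a read with a T>C change marks RNA made during the pulse. A further 3 libraries, named No_alkylation, lacked that step and give the background of T>C reads; the labels name no phase for them. The series title speaks of synchronised cells, while the labels describe sorting. The labels do not say whether the 3 libraries of a phase came from separate cultures, so p-values measure the spread between these libraries. The alkylated libraries held 16096695 to 21803972 reads in counting regions, of which 33270 to 45405 fell on the 184 genes. The labels name no molecular identifiers, so copies of a molecule made by PCR may be counted more than once.

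C2H2 zinc finger proteins read DNA through arrays of zinc fingers, and many of those encoded on chromosome 19 also carry a KRAB domain. The KRAB domain binds the corepressor TRIM28, which brings the histone methyltransferase SETDB1 and heterochromatin proteins of the CBX family to the bound site, and many KRAB zinc finger proteins silence transposable elements in this way. The genes lie in clusters that arose by tandem duplication, and zinc finger messages are known as short-lived in human cells.

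Promoters are shown for 4 of the genes whose reads changed with the phase, to show a promoter feature that was more frequent among the chromosome 19 ZNF genes than among all promoters and that choosing them by name and chromosome did not use. RefSeq's promoter table, which holds the 250 bases before and 50 after a gene's start, matched 165 of the 184 genes. The sequences are those of GRCh38.p14, written 5′ to 3′ on the gene's strand, and capitals mark CGGAAG on either strand (CTTCCG when it lies on the other one), the core of sites bound by ETS family transcription factors.
ZNF283 promoter, plus strand, chr19:43827071-43827370: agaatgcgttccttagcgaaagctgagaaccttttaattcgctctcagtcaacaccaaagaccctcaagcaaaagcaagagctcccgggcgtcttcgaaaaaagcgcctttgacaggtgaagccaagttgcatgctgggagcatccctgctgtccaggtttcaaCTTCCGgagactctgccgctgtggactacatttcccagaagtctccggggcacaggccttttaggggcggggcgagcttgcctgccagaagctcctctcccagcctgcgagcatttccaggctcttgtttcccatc
ZNF561 promoter, minus strand, chr19:9621183-9621482: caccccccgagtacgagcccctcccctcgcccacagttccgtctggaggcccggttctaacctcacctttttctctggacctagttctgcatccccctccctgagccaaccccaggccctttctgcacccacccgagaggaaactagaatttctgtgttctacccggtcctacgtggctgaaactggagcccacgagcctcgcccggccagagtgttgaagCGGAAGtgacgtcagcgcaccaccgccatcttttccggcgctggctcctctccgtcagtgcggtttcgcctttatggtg
ZNF544 promoter, plus strand, chr19:58228664-58228963: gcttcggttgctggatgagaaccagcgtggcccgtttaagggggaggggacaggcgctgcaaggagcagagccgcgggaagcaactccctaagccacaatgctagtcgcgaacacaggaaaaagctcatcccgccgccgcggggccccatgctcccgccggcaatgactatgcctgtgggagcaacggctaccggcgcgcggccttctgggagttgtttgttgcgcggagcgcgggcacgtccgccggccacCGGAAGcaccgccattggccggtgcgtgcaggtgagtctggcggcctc
ZNF566 promoter, minus strand, chr19:36489512-36489811: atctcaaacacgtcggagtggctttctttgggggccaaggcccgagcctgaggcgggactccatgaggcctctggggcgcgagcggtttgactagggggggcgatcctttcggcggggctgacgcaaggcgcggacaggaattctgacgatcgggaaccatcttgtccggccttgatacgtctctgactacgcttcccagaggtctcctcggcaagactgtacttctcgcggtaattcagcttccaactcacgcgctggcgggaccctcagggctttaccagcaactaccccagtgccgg

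ZNF283 and ZNF561 held a single CGGAAG match each before the start, ZNF544 a single match just after it, and the ZNF566 window had none. CGGAAG was found in 96 of the 165 chromosome 19 ZNF promoters (58.2%), against 95 of 214 promoters of ZNF genes on other chromosomes (44.4%) and 19.9% of all 27305 promoters. The chromosome 19 ZNF promoters held a median of 22 CG dinucleotides against 14 over all promoters. Among promoters with at least 20 CG dinucleotides the match was in 61 of 103 chromosome 19 ZNF promoters (59.2%), against 33.6% of 11251 promoters in all. A further 4 motifs were searched on both strands, and matches of different motifs may overlap. CCAAT was in 46.7% of the chromosome 19 ZNF promoters against 35.7% of all promoters, and the core of the NRF1 motif in 15.2% against 8.78%. TATAAA, the core of the TATA box, was in 1.82% against 12%, and TTTGAA in 11.5% against 15.4%. Among promoters with at least 20 CG dinucleotides, CCAAT was in 37.9% against 31.8% and the NRF1 core in 23.3% against 19.6%. There TATAAA was in 0% against 3.25%, and TTTGAA turned to 10.7% against 6.07%. Promoters of ZNF genes on other chromosomes held CCAAT in 43.5%, the NRF1 core in 14.5%, TATAAA in 4.21% and TTTGAA in 10.3%. A match describes letters and is not a bound site.

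The chromosome 19 ZNF genes were low in abundance. Their reads ran from 10.5 to 6199 per alkylated library on average with a median of 86.9, against a median of 392 for all other genes. ZNF90 alone took 15.9% of their reads, and the 6 most abundant genes, ZNF90, ZNF428, ZNF283, ZNF146, ZNF787 and ZNF121, took 39.6%. Fewer than 100 reads were found for 98 of the 184 genes. Reads mapped to several places made up over 10% in 13 genes, ZNF90 among them with 19.5%, so that its reads can be shared with near copies. No gene overlapped a region of another name on its own strand, and 3 did so on the opposite strand (ZNF540 with ZFP30, ZNF587 with ZNF814, ZNF446 with SLC27A5). T made up a median of 29.4% of the bases of their counting regions, against 29% for all other genes.

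Together the 184 genes held a larger share of the T>C reads than of all reads in every phase. They took 0.223% ± 0.00589 of all reads in G1, 0.210% ± 0.00622 in Early_S and 0.197% ± 0.00315 in Late_S, with 0.201% ± 0.00700 in G2 (SD, n = 3 each). Of the T>C reads they took 0.389% ± 0.0410 in G1, 0.405% ± 0.0237 in Early_S and 0.561% ± 0.0256 in Late_S, with 0.524% ± 0.0443 in G2. In the No_alkylation libraries they held 0.267% ± 0.00446 of all reads and 0.168% ± 0.0227 of the few T>C reads. A bulk library cannot tell fewer cells that express a gene from less RNA of it per cell.

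The labelled share is the percentage of a gene's reads that carry a T>C change. In every phase the median chromosome 19 ZNF gene was labelled more than other genes of like read count. The median over the 184 genes was 50.5%, 34.6% and 51.9% in the 3 G1 libraries and 40%, 35.1% and 45% in Early_S. It was 35.9%, 32.9% and 29.4% in Late_S and 28.2%, 26.8% and 31.2% in G2. The second library had the lowest median of its phase in G1, Early_S and G2, and it was also the lowest there for all other genes.

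Averaged over the libraries of a phase, the median share was 45.7% ± 9.61 in G1, 40.1% ± 4.93 in Early_S and 32.7% ± 3.26 in Late_S, with 28.8% ± 2.23 in G2 (SD, n = 3 each). For all other genes the medians were taken in the same 8 bins of read count and weighted by the number of chromosome 19 ZNF genes in each bin. These were 27.2% ± 5.98 in G1, 18.4% ± 4.08 in Early_S and 8.03% ± 0.130 in Late_S, with 5.90% ± 1.17 in G2. The G2 median of all other genes was 0% in the bins of 10 to under 20 and of 20 to under 40 reads, which lowers the weighted value. Among genes of at least 100 reads the G2 medians were 25.6% for 86 chromosome 19 ZNF genes and 9.55% for 9917 other genes. In G1 they were 41.1% and 26.3%. In all 12 alkylated libraries the median of the chromosome 19 ZNF genes lay above that of the other genes. No p-value is given for this gap, since genes are not replicates and the list was chosen with earlier results known.

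ZNF genes on other chromosomes had shares in the same range. Their weighted medians were 47.5% ± 3.38 in G1, 40.9% ± 7.46 in Early_S and 31% ± 1.59 in Late_S, with 21.7% ± 1.91 in G2. By library the chromosome 19 ZNF genes and these genes overlapped in G1, Early_S and Late_S, while in G2 the 3 chromosome 19 medians were all higher. That G2 gap was widest among genes of 10 to under 20 reads, at 66.9% for 16 chromosome 19 ZNF genes against 4.55% for 14 others. Among genes of at least 100 reads the G2 medians were 25.6% for 86 chromosome 19 ZNF genes and 24.2% for 135 ZNF genes on other chromosomes. The other genes of chromosome 19 had weighted medians of 19.9% ± 3.64 in G1, 15.7% ± 2.85 in Early_S and 7.76% ± 1.39 in Late_S, with 5.00% ± 1.14 in G2. Their regions had a median of 22.5% T.

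**Figure D1:**
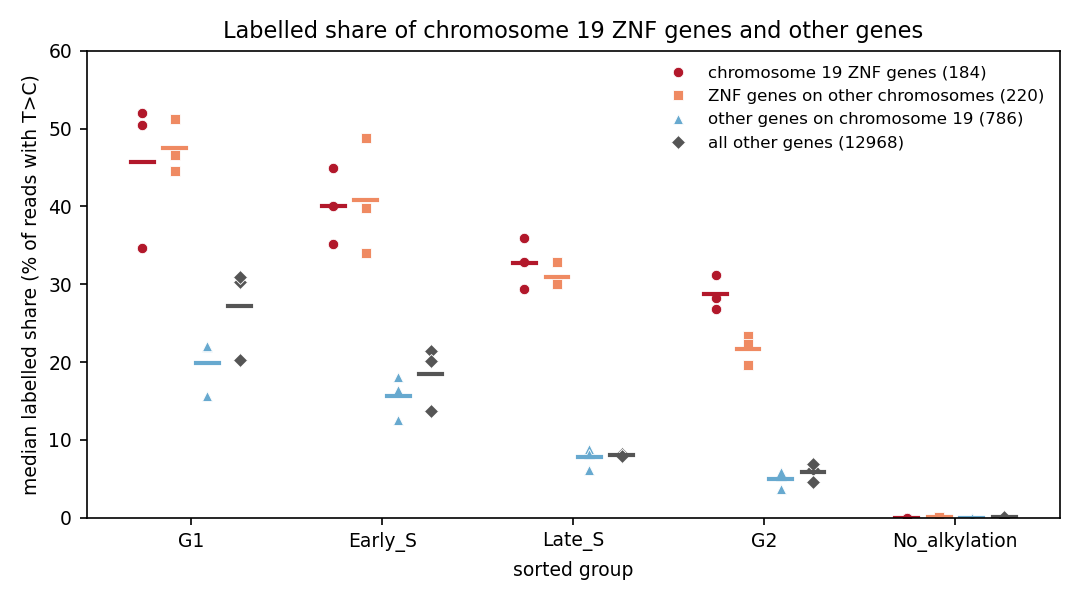
Median labelled share (vertical axis, percent of reads with a T>C change) in each library of the 4 phases and the No_alkylation group; points are libraries, bars the mean of 3, and the 3 comparison sets are weighted to the read counts of the chromosome 19 ZNF genes. The chromosome 19 ZNF genes lie at 45.7% in G1 and 28.8% in G2 on average, above all other genes at 27.2% and 5.90%. The G2 value of all other genes includes 2 bins of rare genes with a median of 0%. Among genes of at least 100 reads, not drawn here, the G2 medians are 25.6% and 9.55%.

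Gene by gene, 143 of the 184 genes in G1, 145 in Early_S and 164 in Late_S, with 162 in G2, lay above the median of the other genes in their read count bin. A labelled share over 50% was seen in 84 of them in G1 (45.7%), against 20.6% of all other genes. In G2 it was seen in 59 (32.1%), against 5.74% of all other genes. The spread within the list was wide, with quartiles of 31.5% and 73.7% in G1 and of 15.8% and 58.8% in G2.

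Genes that were highly labelled in G1 were mostly highly labelled in G2. Over all 184 genes the G1 and G2 shares had a Spearman rho of 0.72, and over the 86 genes of at least 100 reads it was 0.88; the points of a phase share the same 3 libraries. The mean share had a rho of 0.18 with the T content of the region and of -0.21 with the read count over the 184 genes. Its highest values also went with the strand, though no medians by strand were taken. Among genes of at least 100 reads the highest mean share on the plus strand was 49.7%, that of ZNF283. The 5 highest mean shares, from ZNF329 at 86.9% to ZNF28 at 82.6%, all belonged to minus-strand genes. Low shares were seen on the minus strand too, as in ZNF428 at 8.88%. Why the strands differed was not tested. Other genes were not split by strand, and the comparisons with them were matched for read count but not for strand. Among the 86 better measured genes, 83 had a lower mean share in G2 than in G1. All of the 86 except ZNF266, ZNF561 and ZNF28 did so, the first of which was named after its values were seen, and 97.7% of the 9917 other genes of at least 100 reads did. The median G2 share was 0.631 times the G1 share for the 86 genes (quartiles 0.453 and 0.825). It was 0.407 times for all other genes and 0.583 times for the 135 ZNF genes on other chromosomes.

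Genes of like labelling in G1 can be set side by side among those of at least 100 reads. Of those with a G1 share between 60% and 80%, the 18 chromosome 19 ZNF genes had a median of 54.1% in G2 and the 813 other genes 34.6%. Between 20% and 30% in G1, the medians in G2 were 15% for 17 chromosome 19 ZNF genes and 8.74% for 1982 other genes. Between 30% and 40% they lay closer, at 16.1% for 20 genes against 12.8% for 1461 others. Below 10% in G1 only 2 chromosome 19 ZNF genes were found, with a median of 2.99% in G2 against 3.59% for 1086 others.

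**Figure D2:**
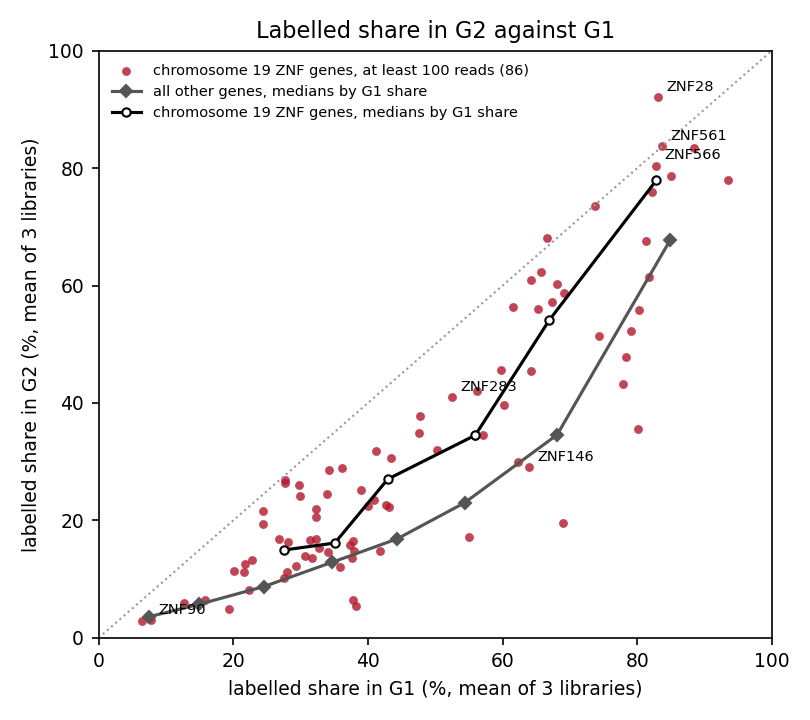
Labelled share in G2 (vertical, percent) against G1 (horizontal, percent) for the 86 chromosome 19 ZNF genes of at least 100 reads, as means of 3 libraries; lines join medians of genes binned by their G1 share, and the dotted line marks equal shares. For G1 shares of 60% to 80% the chromosome 19 ZNF genes have a median of 54.1% in G2 against 34.6% for all other genes.

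The conversion rate, the percentage of sequenced T positions read as C, does not depend on calling a read new. Its median over the chromosome 19 ZNF genes was 5.00% ± 1.20 in G1, 5.00% ± 0.856 in Early_S and 3.88% ± 0.295 in Late_S, with 3.28% ± 0.343 in G2 (SD, n = 3 each). All other genes of like read count had 2.73% ± 0.701 in G1, 2.02% ± 0.490 in Early_S and 0.875% ± 0.0165 in Late_S, with 0.617% ± 0.151 in G2.

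Background in the No_alkylation libraries was low for most of the genes. Against them, the alkylated libraries had a higher ratio of T>C to other reads in 168 of the 184 genes and a lower one in none (edgeR quasi-likelihood test, adjusted p under 0.05; 84.4% of the 12909 genes tested were called higher and 0% lower). In 79 genes no T>C read was seen without alkylation, and in 6 over 5% of the pooled No_alkylation reads carried one. The highest among genes of at least 50 reads were ZNF114, ZNF468, ZNF417 and ZNF460. ZNF114 had shares of 19.6%, 23.6% and 39.8% in G1, against 24.1%, 100% and 0% in the 3 No_alkylation libraries, so its labelled share overlapped its background. Those 3 libraries held 7 T>C reads of 29, 8 of 8 and 0 of 51. ZNF468 had 94.8%, 83.5% and 86.9% in G1, against 15.1%, 8.04% and 14% without alkylation, and 12.8% of its reads mapped to several places. The ZNF417 background rested on a single library, with 96.9%, 78.3% and 72.2% in G1 against 0%, 58.3% and 0% without alkylation.

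The highest mean shares among genes of at least 100 reads belonged to ZNF28, ZNF561, ZNF850, ZNF468 and ZNF329. ZNF28 had 94.4%, 92.8% and 89.1% in G2, against 93.6%, 73.7% and 81.9% in G1. ZNF561 had 75.8%, 87.6% and 87.9% in G2, against 83.9%, 85.7% and 81.3% in G1, with no T>C read in the No_alkylation libraries. ZNF850 had 88.6%, 73.5% and 71.6% in G2, against 97.2%, 88.8% and 94.6% in G1. More than 70% of the reads of these 3 genes carried a T>C change in every G1 and G2 library. ZNF329 had its highest values in Late_S, with 98.8%, 97.7% and 97%.

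The lowest mean shares of the same genes belonged to ZNF358, ZNF534, ZNF90, ZNF428 and ZNF580. ZNF90, the most abundant, had 3.18%, 2.56% and 3.48% in G2, against 8.51%, 6.59% and 8.02% in G1. ZNF428 had 8.02%, 3.70% and 6.19% in G2, against 11.3%, 14.4% and 12.2% in G1. ZNF358 had 0.628%, 5.29% and 2.78% in G2, against 7.12%, 4.16% and 7.97% in G1. ZNF90 and ZNF428 were lower in each G2 library than in any G1 library, whereas the ZNF358 libraries overlapped. Reads with a T>C change stayed under 15% in every G1 and G2 library of these 3 genes.

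A few genes were looked at for what is known of them. ZNF91, which silences SVA retrotransposons, was too rare to describe at 17.6 reads on average. ZNF611, which also binds SVA elements, had a labelled share of 45.5% ± 9.92 in G2 and 59.8% ± 8.39 in G1 (SD, n = 3 each). ZNF274, which brings SETDB1 to the 3′ ends of zinc finger genes, had 23.5% ± 17.9 in G2 and 40.9% ± 10.9 in G1. ZNF331, an imprinted gene, had 13.6% ± 2.13 in G2 and 37.6% ± 14.1 in G1. ZNF473, a component of the machinery that cuts histone pre-mRNA, had 13.9% ± 8.02 in G2 and 30.7% ± 12 in G1. ZNF146, a protein made almost wholly of zinc fingers, had 29.1% ± 6.02 in G2 and 63.9% ± 9.86 in G1. Of these genes only ZNF146 passed a test between phases, in all reads.

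Along the chromosome the genes fell into 16 groups separated by more than 1000000 bases. The largest held 51 genes (chr19:55484374-58481230 in hg38) with a median share of 23.5% in G2 and 39.9% in G1. The next held 34 genes (chr19:51588468-53580269) with 39.3% in G2 and 57.7% in G1. In the group of 23 genes at chr19:36182060-37740194, which holds ZNF146, ZNF566, ZNF568 and ZNF850, the medians were 47.9% in G2 and 63.9% in G1. All of these groups held genes of both strands, so their medians mix strands.

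**Figure D3:**
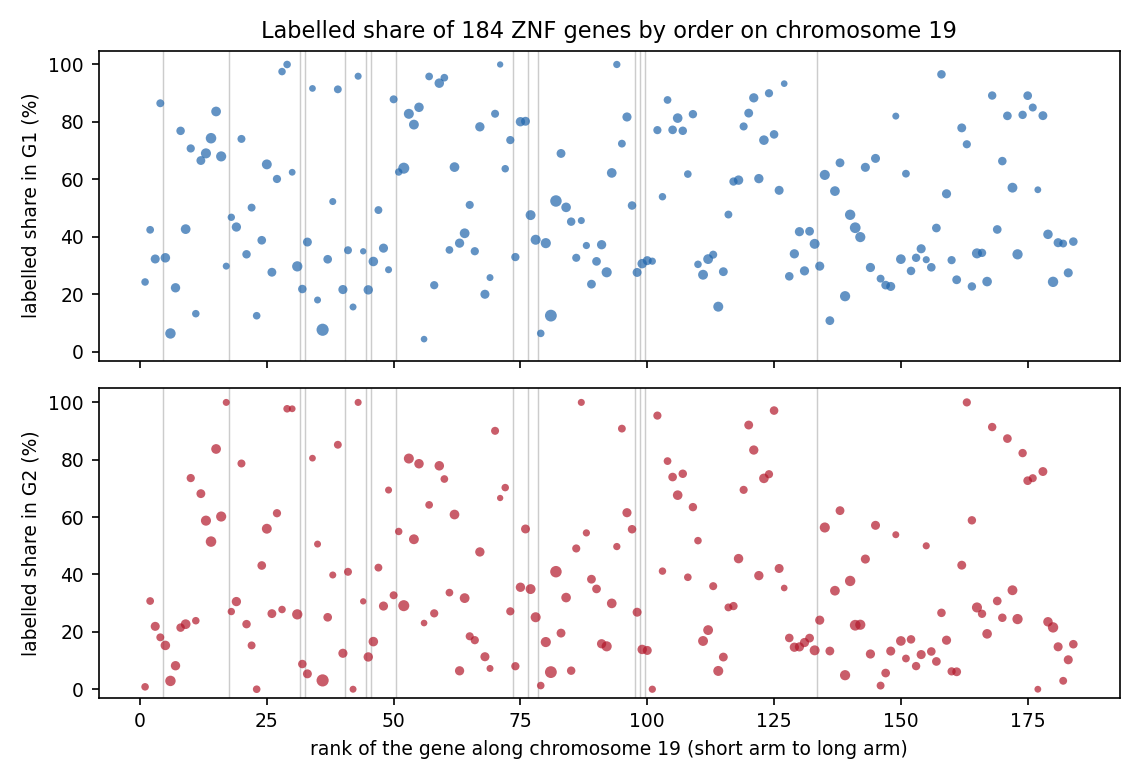
Labelled share (vertical, percent, mean of the libraries with reads) of each of the 184 genes in G1 (top) and G2 (bottom), by rank along chromosome 19; larger points have more reads and vertical lines part the 16 groups. The quartiles over all genes are 31.5% and 73.7% in G1 and 15.8% and 58.8% in G2, and each of the larger groups spans low and high shares.

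All reads measure the total level of a message. Of the 184 genes, 183 passed the filter on low counts, and 16 of them changed over the 4 phases (edgeR quasi-likelihood F-test, adjusted p under 0.05). That is 8.74% of them, against 34.1% of all 13755 genes tested and 17.6% of other genes of like read count. Of the 16 genes, 11 were highest in G1, 4 in Early_S and 1 in G2. Over all 4693 called genes, G1 was the highest phase for 1625 and G2 for 1155, with Early_S for 1365 and Late_S for 548.

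In Early_S against G1, 5 genes rose and 8 fell, where 12.5% of all genes were called higher and 11.8% lower. The median log2 change over the 183 genes was -0.16, against -0.03 for other genes of like read count. In Late_S against Early_S, 2 genes fell and none rose (4.25% and 6.99% of all genes). In G2 against Late_S no gene was called by edgeR, with 9 at an unadjusted p under 0.05 and 0 called by DESeq2, which gave only 12 of the 183 genes an adjusted p, and 0.145% of all genes were called. In G2 against G1, 2 genes rose and 13 fell (11.1% and 10% of all genes), with a median log2 change of -0.24 against -0.09 for other genes of like read count. These comparisons share libraries and are not independent of one another. By edgeR the genes called in Early_S against G1 numbered 7 without the second Early_S library, those in Late_S against Early_S 4 without the second G2 library, and those in G2 against G1 9 without the first G2 library.

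ZNF283 had the smallest p of the 184 genes. Its level in CPM, the normalised count scaled to library size, was 151, 135 and 167 in Early_S, against 88.7, 62.7 and 83.2 in G1. In Late_S it was 150.3, 123 and 160.5 CPM, and in G2 141, 126 and 146 CPM. Every Early_S, Late_S and G2 library lay above every G1 library. The log2 change was 0.95 ± 0.12 (SE) in Early_S against G1 (edgeR adjusted p = 4.50e-08) and 0.82 ± 0.12 in G2 against G1 (adjusted p = 9.13e-07), and both calls held under each alternative and without each library. Its main counting region is at chr19:43848642-43852017 on the plus strand of hg38.

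ZNF404, which lies in the same group on the minus strand (chr19:43872363-43872554), rose as well. It had 8.93, 5.74 and 6.28 CPM in Early_S, against 1.41, 0.603 and 1.32 CPM in G1. The libraries did not overlap, and the log2 change was 2.65 ± 0.50 (SE, edgeR adjusted p = 8.40e-05). In G2 it had 3.99, 7.21 and 9.38 CPM, a log2 change of 2.62 ± 0.50 against G1 (adjusted p = 9.99e-05). Its labelled share in G2 rested on a single library, at 0%, 58.7% and 0%.

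A further 3 genes rose in Early_S against G1. ZNF568, whose mouse counterpart represses a placental Igf2 transcript, had 9.98, 10.5 and 11.3 CPM in Early_S, against 5.19, 4.55 and 5.18 CPM in G1 (log2 change 1.09 ± 0.34). Its edgeR adjusted p of 0.0171 became 0.0600 without the second G1 library and 0.0538 without the third Early_S library. ZNF738 had 8.48, 14.5 and 9.01 CPM in Early_S, against 2.37, 6.20 and 5.24 CPM in G1 (log2 change 1.21 ± 0.42, adjusted p = 0.0300). Without the second Early_S library that p was 0.169, and without the first G1 library 0.177. ZNF566 had 28.6, 28.7 and 18.4 CPM in Early_S, against 16.5, 14 and 14.2 CPM in G1 (log2 change 0.76 ± 0.24, adjusted p = 0.0177). In each of the 3 genes every Early_S library lay above every G1 library, which the naming rule required of ZNF568 and ZNF738. The libraries of these phases did not overlap in 33 of the chromosome 19 ZNF genes tested and in 37.6% of all genes.

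Among the genes that fell, ZNF114 had the largest log2 change in Early_S against G1. It had 2.24, 3.21 and 4.76 CPM in Early_S, against 18.2, 16.3 and 11.3 CPM in G1 (log2 change -2.17 ± 0.42, edgeR adjusted p = 0.000129). In Late_S it had 3.47, 3.10 and 3.70 CPM, and in G2 3.22, 4.39 and 2.50 CPM, so that its high level was seen in G1 alone. ZNF146 had 70.2, 59.3 and 55.1 CPM in Early_S, against 89.9, 76.5 and 103 CPM in G1. Its libraries did not overlap between these phases, and the log2 change was -0.54 ± 0.13 (adjusted p = 0.00163). In G2 ZNF146 had 58.1, 62.9 and 65.7 CPM, a log2 change of -0.53 ± 0.13 against G1 (adjusted p = 0.00235).

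ZNF480 had 10.7, 13.5 and 11.3 CPM in Early_S, against 32.3, 14 and 30.4 CPM in G1 (log2 change -1.12 ± 0.28, edgeR adjusted p = 0.00215). The second G1 library lay close to the Early_S values. ZNF587B had 15.4, 11 and 14 CPM in Early_S, against 21.3, 30.7 and 21.8 CPM in G1, and its adjusted p of 0.0194 became 0.119 without the second G1 library and 0.0876 without the second Early_S library. ZNF304, which in cancer cells recruits a TRIM28 complex to a tumour suppressor locus, had 6.39, 1.80 and 3.87 CPM in Early_S, against 9.42, 7.46 and 8.41 CPM in G1. Its adjusted p was 0.0493, and it missed the threshold in 10 of the 12 fits without a library, at up to 0.250 without the second Early_S library.

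Both genes that fell in Late_S against Early_S were also called lower in G2 against G1. ZNF557 had 4.88, 9.56 and 6.91 CPM in Late_S, against 19.1, 17.5 and 18.9 CPM in Early_S (log2 change -1.38 ± 0.31, edgeR adjusted p = 0.00220). ZNF791 had 19.1, 17.1 and 17.8 CPM in Late_S, against 36.4, 37.8 and 27 CPM in Early_S (log2 change -0.91 ± 0.20, adjusted p = 0.00181). Neither pair of phases overlapped, a condition of naming the 2 genes, and both calls held under each alternative and without each library. Late_S and Early_S did not overlap in 27 of the chromosome 19 ZNF genes tested and in 28.5% of all genes. In G2 ZNF557 had 9.12, 4.07 and 6.74 CPM, against 12.5, 14.3 and 12.8 CPM in G1, with an adjusted p of 0.0186 that became 0.125 without the second G2 library and 0.0541 without the second G1 library.

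In G2 against G1, ZNF561 had 10.8, 5.48 and 10.9 CPM in G2, against 14.7, 28.8 and 22.2 CPM in G1 (log2 change -1.27 ± 0.29, edgeR adjusted p = 0.000995). ZNF524 had 4.75, 1.46 and 1.23 CPM in G2, against 8.96, 6.20 and 7.66 CPM in G1 (log2 change -1.62 ± 0.50, adjusted p = 0.0158). Its p became 0.0698 without the first G1 library, 0.0736 without the second G2 library and 0.0877 without the third. ZNF428 fell by less, with 167, 167 and 187 CPM in G2, against 218, 191 and 249 CPM in G1 (log2 change -0.34 ± 0.10, adjusted p = 0.00866). In all 3 genes the G2 libraries lay below the G1 libraries, which the naming rule required of ZNF561 and ZNF524. G2 and G1 did not overlap in 45 of the chromosome 19 ZNF genes tested and in 35.2% of all genes.

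**Figure D4:**
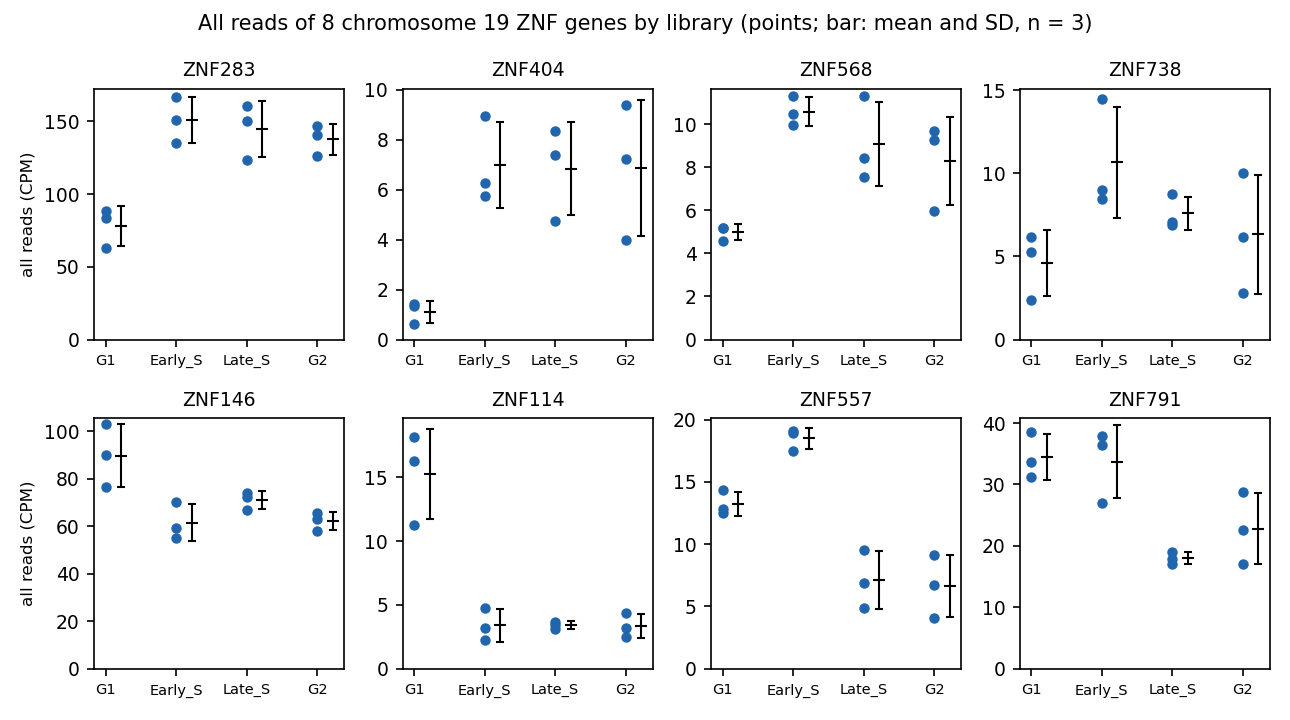
All reads (vertical, CPM) of 8 chromosome 19 ZNF genes in each library of the 4 phases; points are libraries and the bar beside them the mean with SD (n = 3), with a vertical scale of its own for each gene. ZNF283 and ZNF404 are lowest in G1, ZNF146 and ZNF114 highest there, and ZNF557 and ZNF791 lower in Late_S than in Early_S.

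T>C reads were compared after scaling each library to its own T>C reads, so that a gene is set against the bulk of new RNA of its phase. Of the 184 genes, 168 passed the filter on low counts, and 9 of them changed over the 4 phases (5.36%, against 10.4% of all 11474 genes tested and 4.14% of other genes of like read count). Of the 9 genes, 5 were highest in G2 and 4 in Late_S. Over all 1193 called genes, Late_S was the highest phase for 211 and Early_S for 373, with G2 for 325 and G1 for 284. In Early_S against G1, 4 of the 168 genes rose and none fell (3.69% and 1.48% of all genes). In Late_S against Early_S, 3 rose and none fell (1.72% and 1.81% of all genes). In G2 against G1, 9 rose and none fell (4.39% and 2.9% of all genes). No gene was called in G2 against Late_S by edgeR, with 8 at an unadjusted p under 0.05 and 0 by DESeq2, and 0.0523% of all genes were called. These counts leaned on single libraries. Over the phases edgeR called 14 without the second G2 library. It called, in Early_S against G1, 1 without the first Early_S library, 1 without the second Early_S library, 2 without the first G1 library, 2 without the second G1 library and 2 without the third G1 library. It called, in Late_S against Early_S, 1 without the third Early_S library and 0 without the third Late_S library, and in G2 against G1 3 without the first G1 library, 5 without the second G1 library, 3 without the third G1 library and 5 without the third G2 library.

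The direction of these changes depends on the scaling. In G2 against G1 the median log2 change over the 168 genes was 0.34 with T>C reads scaled to T>C reads, against -0.03 over all genes tested. Scaled to all reads of the library, it was -0.89 over the 168 genes and -1.25 over all genes, and the calls became 0 higher and 24 lower (0.54% and 52.9% of all genes). In Late_S against Early_S the medians were 0.47 over the 168 genes and -0.01 over all genes with T>C scaling. With scaling to all reads they were -0.40 and -0.86, with 0 genes called higher and 4 lower (0.0959% and 34.3% of all genes). In Early_S against G1 that scaling left 1 gene called higher and 3 lower (1.68% and 6.73% of all genes). T>C reads were 10.1% ± 0.336 of all reads in G2 and 22.3% ± 0.740 in G1 (SD, n = 3 each). Under either scaling the median of the 168 genes was above that of all genes in these 3 comparisons.

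ZNF283 again had the smallest p. Its T>C reads, in CPM of the library's own T>C reads, were 471, 393 and 491 in Early_S, against 231, 115 and 192 in G1 (log2 change 1.33 ± 0.18, edgeR adjusted p = 1.02e-05). In Late_S they were 735, 599 and 845, and in G2 567, 512 and 651 (log2 change 1.68 ± 0.18 in G2 against G1, adjusted p = 1.49e-07). All its other libraries lay above those of G1. Scaled to all reads, its log2 change in G2 against G1 was 0.45 with an adjusted p of 0.0629. In Late_S against Early_S the log2 change was 0.69 ± 0.18 (adjusted p = 0.0264) with T>C scaling and -0.18 with scaling to all reads. That call also ended without any 1 Early_S library or without the first or the third Late_S library, at 0.0549 to 0.169.

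ZNF566 had 128, 126 and 85.6 CPM of T>C reads in Early_S, against 53.1, 53.4 and 52.5 in G1 (log2 change 1.09 ± 0.26, edgeR adjusted p = 0.00868). Without the first Early_S library the adjusted p was 0.0542, and without the second 0.0518. The ZNF566 change scaled to all reads was 0.73 (adjusted p = 0.0931). In G2 it had 90.8, 175 and 166 (log2 change 1.44 ± 0.26 against G1, adjusted p = 0.000422). All its Early_S and G2 libraries lay above those of G1.

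ZNF888, with 7.12% of its reads mapped to several places, had 124, 69 and 63.2 in G2, against 33, 25.6 and 26.4 in G1 (log2 change 1.59 ± 0.34, edgeR adjusted p = 0.00266, and 0.36 with an adjusted p of 0.385 scaled to all reads). Its Early_S values of 68.3, 84.2 and 46.5 gave 1.23 ± 0.34 against G1 (adjusted p = 0.0285). That call ended in 5 of the 6 fits without an Early_S or G1 library, the fit without the third Early_S library excepted, at up to 0.177 without the second Early_S library. ZNF850 had 66.7, 62 and 90.3 in Early_S, against 32.6, 38.3 and 33 in G1 (1.07 ± 0.32, adjusted p = 0.0461). The ZNF850 call ended without any 1 of the 6 libraries compared, at up to 0.232 without the third Early_S library. With scaling to all reads, the Early_S changes were 0.86 (adjusted p = 0.150) for ZNF888 and 0.72 (adjusted p = 0.209) for ZNF850.

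ZNF581 and ZNF544 rose in Late_S against Early_S. ZNF581 had 110.3, 105 and 215 in Late_S, against 57.4, 53.7 and 63.5 in Early_S (log2 change 1.30 ± 0.28, edgeR adjusted p = 0.00687). The third Late_S library was high, and without it the log2 change was 0.88 and the adjusted p 0.129. ZNF544 had 44.1, 48.8 and 88.7 in Late_S, against 22.2, 17.2 and 18 in Early_S (log2 change 1.66 ± 0.42, adjusted p = 0.0230). Without the third Late_S library it had 1.27 and 0.175, and the call also ended without any 1 Early_S library, at 0.0541 to 0.104. Scaled to all reads, the changes were 0.44 (adjusted p = 0.271) for ZNF581 and 0.80 (adjusted p = 0.175) for ZNF544. For ZNF544 all reads were lowest in Early_S too, at 25.6, 17.4 and 19.3 CPM, against 34, 35.9 and 30.1 CPM in G1 (log2 change -0.68 ± 0.19, adjusted p = 0.00714).

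ZNF562, ZNF579, ZNF296 and ZNF799 were called in G2 against G1. ZNF562 had 157, 113 and 218 in G2, against 67, 102 and 57.2 in G1 (log2 change 1.11 ± 0.28, edgeR adjusted p = 0.0118). ZNF579 had 129, 139.8 and 133 in G2, against 35.2, 97.4 and 62 in G1 (1.05 ± 0.29, adjusted p = 0.0223). In both, each G2 library lay above each G1 library. In T>C reads G2 and G1 did not overlap in 40 of the chromosome 19 ZNF genes tested and in 25.6% of all genes. Scaled to all reads, neither was called higher in G2 against G1. Over the 4 phases the edgeR adjusted p of ZNF562 was 0.00951. It became 0.436 scaled to all reads and 0.0624 without the third G2 library. ZNF296 had 34.7, 15.3 and 32.5 in G2, against 5.90, 4.86 and 6.41 in G1 (2.26 ± 0.69, adjusted p = 0.0449). ZNF799 had 7.70, 62.8 and 33.8 in G2, against 4.01, 0 and 4.99 in G1 (3.51 ± 1.06, adjusted p = 0.0410). The call of ZNF296 ended in 5 of the 6 fits without a G1 or G2 library, the fit without the second G2 library excepted, at 0.0996 to 0.143. The call of ZNF799 ended in 5 of the same 6 fits, the fit without the first G2 library excepted, at 0.0676 to 0.186. Scaled to all reads, the changes were 1.04 (adjusted p = 0.230) for ZNF296 and 2.23 (adjusted p = 0.0912) for ZNF799.

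**Figure D5:**
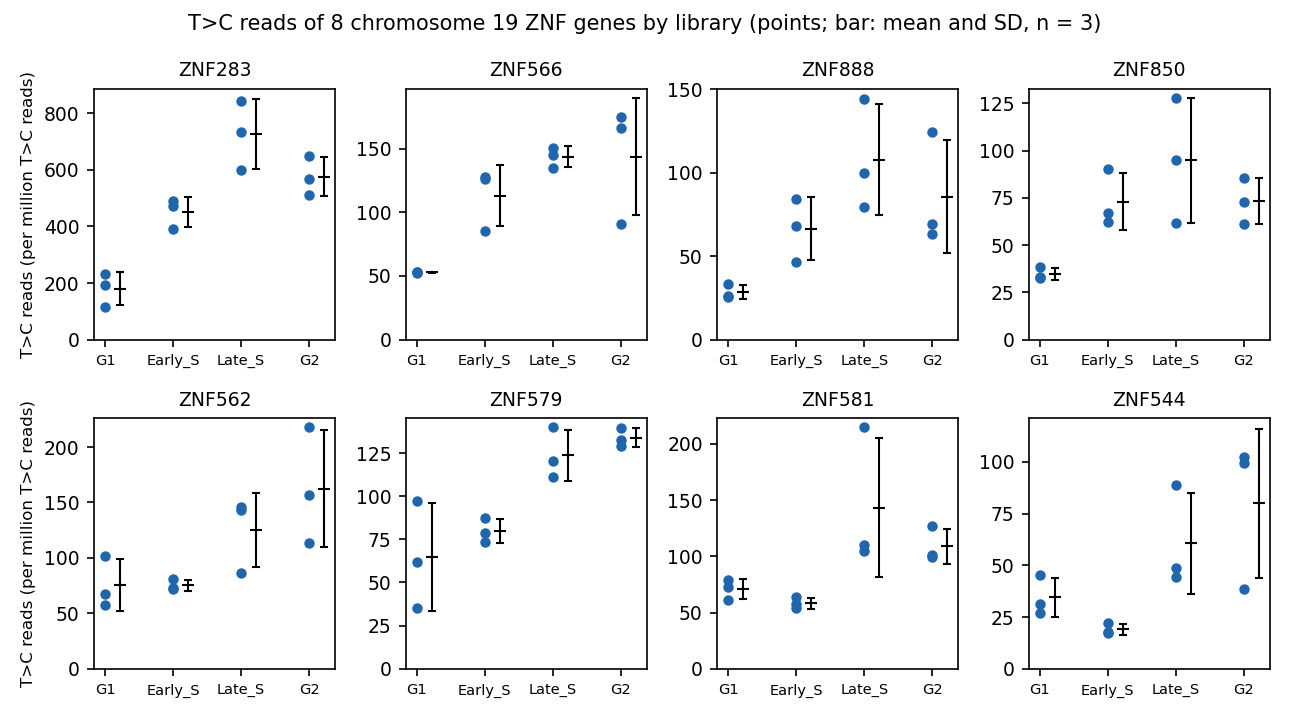
T>C reads (vertical, CPM of the library's own T>C reads) of 8 chromosome 19 ZNF genes in each library of the 4 phases; points are libraries and the bar beside them the mean with SD (n = 3), with a vertical scale of its own for each gene. ZNF283, ZNF566, ZNF888 and ZNF850 have their lowest mean in G1, and ZNF581 and ZNF544 theirs in Early_S; on this scale a gene is set against the bulk of new RNA.

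The last test asked of each gene whether its ratio of T>C to other reads moved between phases more than that of the bulk of genes. Of the 184 genes, 166 passed the filter on low counts, and 9 were called over the 4 phases, which is 5.42%, against 14.7% of all 11437 genes and 3.82% of other genes of like read count. In Early_S against G1, 2 rose and none fell (4.25% and 1.06% of all genes). In Late_S against Early_S, 2 rose and 1 fell (2.27% and 5.87%), and in G2 against G1, 3 rose and 1 fell (4.35% and 4.42%). In G2 against Late_S edgeR called none, with 10 at an unadjusted p under 0.05 and 0.0437% of all genes called; DESeq2 was not run on this model. Over the phases the calls numbered 4 without the first G1 library, 5 without the third G1 library and 5 without the third Late_S library. They numbered, in Early_S against G1, 0 without the first Early_S library and 0 without the second Early_S library, in Late_S against Early_S 1 without the third Late_S library, and in G2 against G1 1 without the second G1 library. Relative to the bulk the median log2 change of the 166 genes was 0.40 in G2 against G1, with -0.19 over all genes. Scaled to all reads the medians were -1.16 and -1.75, with 1 gene called higher and 24 lower (0.122% and 63.1% of all genes).

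ZNF772 fell against the bulk. Its labelled share was 15.4%, 37.2% and 57.8% in Late_S, against 98.6%, 100% and 98.4% in Early_S. In G2 it was 25.9%, 23.1% and 31%, against 95.5%, 98.4% and 95.8% in G1. Nearly all of its reads carried a T>C change in G1 and Early_S, and the Late_S and G2 libraries were all far lower. The log2 change of its ratio was -5.91 ± 1.31 in Late_S against Early_S (edgeR adjusted p = 0.00457). In G2 against G1 it was -4.63 ± 1.17 (adjusted p = 0.0117, and 0.0542 without the second and 0.0517 without the third G1 library). It had 74 reads per library on average.

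ZNF160, ZNF283 and ZNF561 rose against the bulk in G2 against G1. ZNF160 had 96.1%, 100% and 95.4% in G2, against 63.9%, 84.1% and 79% in G1 (log2 change of the ratio 4.77 ± 1.02, edgeR adjusted p = 0.00297). ZNF283 had 39.9%, 37.5% and 45.5% in G2, against 62.2%, 39.4% and 55.9% in G1, a mean share that was lower in G2 while its ratio moved up against the bulk (0.89 ± 0.22, adjusted p = 0.00872). Without the second G1 library that p was 0.0730, and scaled to all reads the change was -0.68 (adjusted p = 0.0486). ZNF561, whose shares are given above, was called at 1.60 ± 0.51 (adjusted p = 0.0484), a call that ended in 9 of the 12 fits without a library, at up to 0.182 without the third G1 library. The ZNF561 change scaled to all reads was 0.06 (adjusted p = 0.936).

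ZNF44 and ZNF579 rose against the bulk in Early_S against G1. ZNF44 had 98.6%, 97.2% and 98% in Early_S, against 60%, 67.3% and 53.2% in G1 (log2 change of the ratio 5.21 ± 1.30, edgeR adjusted p = 0.0153). Its p became 0.0642 without the first Early_S library, 0.0525 without the second and 0.0596 without the third G1 library, and scaled to all reads the change was 4.87 (adjusted p = 0.0734). ZNF579 had 85.2%, 84.9% and 73.5% in Early_S, against 47%, 69.4% and 68.3% in G1 (1.83 ± 0.46, adjusted p = 0.0155). Its p became 0.0642 without the first Early_S library, 0.0873 without the second and 0.122 without the first G1 library, and scaled to all reads the change was 1.45 (adjusted p = 0.159).

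In Late_S against Early_S, ZNF581 and ZNF283 rose against the bulk. ZNF581 had 39.3%, 40.5% and 53.1% in Late_S, against 40%, 37% and 41.6% in Early_S (log2 change of the ratio 1.44 ± 0.37, edgeR adjusted p = 0.0142). Its p became 0.121 without the third Late_S library and 0.0558 without the first Early_S library, and scaled to all reads the change was 0.28 (adjusted p = 0.632). ZNF283 had 48.1%, 49.1% and 51.8% in Late_S, against 60.4%, 51.5% and 54.9% in Early_S (0.81 ± 0.21, adjusted p = 0.0170), and its log2 change was -0.34 scaled to all reads. The ZNF283 call ended without the second Early_S library (0.0764), without the third (0.0799) or without the third Late_S library (0.0821). For both genes the labelled shares of the Late_S and Early_S libraries overlapped.

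A list of 17 corepressor and silencing genes, called corepressors here, was read beside the ZNF genes, and all of them were tested. The list was not limited to genes shown to act with KRAB zinc finger proteins. In all reads 8 of the 17 changed over the 4 phases, where 34.1% of all genes were called. Between Early_S and G1, 4 rose and 3 fell (12.5% and 11.8% of all genes). CHD4, MORC2, SMARCAD1 and TRIM33 rose in Late_S against Early_S (6.99% of all genes), and CBX1, CBX5, FAM208A and MORC2 rose in G2 against G1 (11.1% of all genes). Neither of these comparisons had a corepressor that fell. TRIM28 had 191 ± 3.87 CPM in G1, 186 ± 14.7 in Early_S and 198 ± 12.3 in Late_S, with 199.6 ± 14.7 in G2 (SD, n = 3 each) and was not called. CBX5 rose to 186 ± 15.3 CPM in G2, against 122 ± 15.2 in G1 (log2 change 0.60 ± 0.10, edgeR adjusted p = 6.43e-06), and CBX1 to 291 ± 18.5 CPM, against 205 ± 23.3 in G1 (0.50 ± 0.09, adjusted p = 1.78e-05). In T>C reads edgeR called none of the 17. In the ratio of T>C to other reads it called CBX5 and MORC2 over the phases, where 14.7% of all genes were called. CBX5 had a labelled share of 7.86% ± 3.34 in G2 and 32.9% ± 2.47 in G1, and its ratio fell against the bulk (log2 change -1.02 ± 0.25, adjusted p = 0.00931). MORC2 had 7.93% ± 1.36 in Late_S and 71.5% ± 7.73 in Early_S, and its ratio fell as well (-3.75 ± 0.66, adjusted p = 0.000456). TRIM28 had a labelled share of 6.96% ± 0.682 in G2 and 17.2% ± 1.67 in G1.

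The list of phase markers held 10 genes, all called over the phases in all reads, where 34.1% of all genes were called. The 5 G2 markers (CCNA2, CCNB1, PLK1, TOP2A and CDC20) summed to 1462 to 1495 CPM in the G2 libraries and to 528 to 547 CPM in the G1 libraries. The 3 G1 markers (CCNE1, CDKN1A and CDC6) summed to 285 to 335 CPM in G2 and 886 to 931 CPM in G1. Most of that difference lay in CDKN1A, with 149 CPM in G2 and 682 CPM in G1 on average. CCNE1 had 116 and 174 CPM and CDC6 37.2 and 53.3 CPM, and CDC6 was lowest in Early_S at 27.4 CPM. The 2 S markers (CCNE2 and RRM2) summed to 435 to 449 CPM in G1, 531 to 537 CPM in Early_S, 438 to 472 CPM in Late_S and 396 to 436 CPM in G2, so that the Late_S libraries overlapped G1 and lay below Early_S. RRM2 made up most of these sums, at 431 CPM in G1 and 522 CPM in Early_S on average. CCNE2 did not rise from G1 to Early_S, with 12.3 ± 1.81 and 12.3 ± 1.25 CPM (SD, n = 3 each). It had 4.67 ± 1.98 CPM in Late_S and 5.10 ± 3.36 CPM in G2. Mesenchymal markers, 4 of 5 called, summed to between 5214 and 6188 CPM. Epithelial markers lay between 5.12 and 19.4 CPM and endothelial ones at or under 1.84 CPM. The mesenchymal sum was 5214 to 5341 CPM in G2 and 5900.1 to 6188 CPM in G1, and its part in the results on the ZNF genes was not tested.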

How the data were processed

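Per the file headers, the deposited tables hold counts made by the authors with slamdunk 0.2.4 over regions of the merged annotation of Ensembl release 90: reads, T>C reads, multimapped reads and converted T positions per region. The build is hg38, per the submitters' processing notes. The strand setting, the number of conversions that makes a read new and the read trimming were named by no source used here. The counts were summed by gene name without further scaling.

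All reads, T>C reads and their ratio were fitted with edgeR 4.0.16 quasi-likelihood tests in R 4.3.3 (TMM, filterByExpr with a minimum count of 10 and minimum total of 15) over all genes and the 12 alkylated libraries, with Benjamini-Hochberg adjustment over all genes tested and a threshold of 0.05. The ratio was fitted with T>C and other reads as separate columns, the library as a block and the interaction of read kind with phase. DESeq2 1.42.0 was an alternative, with other size factors, no filter, scaling to all reads, each library left out and a replicate block. The fits were also run on simulated counts, in which only genes of at least 50 reads on average were given a change. Rarer genes were not covered, and no result given here rests on that run. The labels' replicate numbers paired the libraries weakly at most. Deviations of same-numbered libraries correlated at -0.0166 to 0.0308 in all reads and -0.0168 to 0.0913 in T>C reads. The highest of these was between the second G1 and the second Early_S library in T>C reads. The second libraries of G1, Early_S and G2 also had the lowest percentage of T>C reads of their phase (21.5%, 17.9% and 9.77%). The second Late_S library had the highest of its phase (10.1%). The main fits left the replicate number out. Intervals and tests cover these libraries only.

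The members and lists were chosen with earlier results of these data known. Genes were named by rule: the 6 with most reads, the 5 highest and 5 lowest mean shares among genes of at least 100 reads, up to 6 called genes of smallest p over the phases in each measure, up to 4 called genes each way with the largest log2 change in each comparison (at least 20 counts and, for reads, no overlap of libraries), the 3 genes on either side of the read minimum, the 4 highest background shares among genes of at least 50 reads, and ZNF91, ZNF146, ZNF274, ZNF331, ZNF473 and ZNF611. Further comparisons of a gene so named are given beside its own. For a gene named by a log2 change in all reads or T>C reads, the lack of overlap was a condition and adds no evidence. Lists of corepressors, phase markers and cell type markers (mesenchymal: VIM, COL1A1, SPARC, RUNX2, CDH2; epithelium: EPCAM, CDH1, KRT5; endothelium: PECAM1, VWF) were read beside the ZNF genes; a further marker list is not reported here. The corepressors were TRIM28, SETDB1, ATF7IP, CBX1, CBX3, CBX5, CHD3, CHD4, HDAC1, HDAC2, MPHOSPH8, FAM208A, PPHLN1, MORC2, SMARCAD1, TRIM24 and TRIM33. KRAB domains and finger numbers were not analysed here.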

Additional observations from a re-analysis of the deposited data

How the results depend on the processing

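Counts of called chromosome 19 ZNF genes moved by over 1.5 times in these cases. DESeq2 called 26 genes over the phases and 5 in Late_S against Early_S in all reads (edgeR 16 and 2), and in T>C reads 14 over the phases, 5 in Late_S against Early_S and 15 in G2 against G1 (edgeR 9, 3 and 9). Scaling T>C reads to all reads gave 23 over the phases and 24 in G2 against G1. In the ratio model it gave 19 over the phases, 0 in Early_S against G1, 12 in Late_S against Early_S and 25 in G2 against G1 (main 9, 2, 3 and 4). Without a filter the ratio model called 14 over the phases, 1 in G2 against Late_S and 7 in G2 against G1. The conversion rate is a percentage of T positions and not of reads, so its medians cannot be read as a move of the labelled share. They were 5.00%, 5.00%, 3.88% and 3.28% in G1, Early_S, Late_S and G2. Leaving out 1 library gave, in all reads, 11 to 20 over the 4 phases, 7 to 14 in Early_S against G1, 2 to 4 in Late_S against Early_S, 0 to 0 in G2 against Late_S and 9 to 16 in G2 against G1. In T>C reads it gave 7 to 14 over the 4 phases, 1 to 5 in Early_S against G1, 0 to 3 in Late_S against Early_S, 0 to 0 in G2 against Late_S and 3 to 12 in G2 against G1. In the ratio model it gave 4 to 11 over the 4 phases, 0 to 2 in Early_S against G1, 1 to 4 in Late_S against Early_S, 0 to 0 in G2 against Late_S and 1 to 5 in G2 against G1. It gave 159 to 170 genes above the No_alkylation libraries, and median shares of 42.5% to 51.2% in G1, 37.6% to 42.5% in Early_S and 31.1% to 34.4% in Late_S, with 27.5% to 29.7% in G2. The replicate numbers paired the libraries weakly at most. A replicate block gave 19, 14, 3, 0 and 17 called genes in all reads, 10, 3, 3, 0 and 8 in T>C reads and 8, 2, 3, 0 and 4 in the ratio model, in the same order of comparisons. Of 54 calls of named genes, 21 held in every alternative and 26 were lost in at least 1 fit without a library. The 3 calls that turned in sign were those of ZNF283 under scaling to all reads: -0.18 in T>C reads and -0.34 in the ratio for Late_S against Early_S, and -0.68 in the ratio for G2 against G1. The causes of these moves were not tested.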
